A study of Mus musculus with 1248 samples.

Results

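The 43 genes described here make up a response to type I interferon: transcription factors of the signal (Irf1, Irf7, Irf9, Stat2), sensors of foreign nucleic acid, the Isg15 system, the OAS, IFIT, Mx and PARP families, guanylate-binding and immunity-related GTPases, chemokines and a few further induced genes. They were chosen by symbol, 43 of 40756 genes counted, and each symbol was found in the count table. They were measured by Smart-seq2, a full-length single-cell RNA-seq method, in cells of the BALB/c mouse mammary carcinoma line 4T1 and of its clonal subline 4T1.2, both carrying firefly luciferase and the red fluorescent protein mCherry. The 7 groups were cultured 4T1 cells (54 wells), 4T1 cells sorted from the hindlimb bones of female BALB/c mice 4 days (513 wells), 10 days (96 wells) and 16 days (192 wells) after injection into the heart, 4T1 cells of mammary fat pad tumours (96 wells, day 22), cultured 4T1.2 cells (54 wells) and 4T1.2 cells from bone at day 4 (243 wells). The labels describe sorting of mCherry-positive cells and a qPCR for mCherry cDNA in each well, with wells of weak signal discarded. The labels name no mouse, culture or plate. A group is therefore 1 sample, no test between groups can be made, and the ranges over wells below are ranges over cells and not over animals.

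Interferons α and β bind the receptor Ifnar1-Ifnar2, whose kinases Jak1 and Tyk2 activate Stat2. Stat2 and Irf9 act in the ISGF3 complex, which binds interferon-stimulated response elements (ISREs) in promoters and switches on antiviral genes. Interferon γ acts through another receptor and through gamma-activated sites (GAS) in promoters, and many genes, among them Irf1, Gbp2, Igtp and Cxcl10, answer to both. Tumour cells can keep such a programme running without added interferon, and in this mammary model loss of Irf7-driven genes has been tied to spread to bone.

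Promoter sequence was taken from RefSeq (GRCm38.p6, 250 bases before to 50 bases after each start), which matched 33 of the 43 genes. The letters GAAANNGAAA, an ISRE core, were searched on both strands and stood in 48.8% of the 41 promoters of these genes (20 promoters, 18 genes) and in 3.44% of all 32851 promoters. The letters TTCNNNGAA, a GAS core, stood in 19.5% of the promoters of these genes (8 promoters) and in 8.30% of all. The next windows show, in the gene's own direction with the matched block in capitals, 5 genes that were lower in tumour cells of bone at day 4 than in culture (Isg15, Ifit1, Bst2, Apol9a, Apol9b) and then 3 that were not lower by summed counts (Gbp2, Igtp, Irf1). Gbp2 and Igtp hold the same ISRE letters as the first 5, and the Irf1 window shows its GAS letters. GAS letters were not particular to Irf1. They also stood in promoters of Bst2, Oas1a, Eif2ak2 and Isg20, lower at day 4 in 4T1 by summed counts. Igtp, Ifit2 and Ifi35, which were not lower in 4T1 by that rule, held them too. The Apol9a and Apol9b windows are the same 46 bases at different places of chromosome 15.
Isg15, chr4:156200860-156200905, minus strand: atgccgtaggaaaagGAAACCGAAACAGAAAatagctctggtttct
Ifit1, chr19:34640789-34640828, plus strand: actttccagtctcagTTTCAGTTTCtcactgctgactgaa
Bst2, chr8:71537572-71537617, minus strand: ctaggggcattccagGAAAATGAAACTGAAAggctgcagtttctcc
Apol9a, chr15:77411109-77411154, minus strand: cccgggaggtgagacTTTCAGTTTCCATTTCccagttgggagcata
Apol9b, chr15:77729020-77729065, plus strand: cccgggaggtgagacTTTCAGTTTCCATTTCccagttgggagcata
Gbp2, chr3:142620589-142620628, plus strand: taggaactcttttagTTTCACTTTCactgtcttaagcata
Igtp, chr11:58199507-58199546, plus strand: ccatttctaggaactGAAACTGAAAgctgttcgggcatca
Irf1, chr11:53769909-53769947, plus strand: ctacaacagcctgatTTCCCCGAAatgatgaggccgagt

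Of 1248 wells, 1218 passed a filter on detected genes (1000 or more), counts (50000 or more) and the mitochondrial share (25% or less). A well was placed on the tumour side when Krt8 plus Krt18, keratins of the carcinoma, exceeded Ptprc, Coro1a, Laptm5 and Rac2, blood cell genes, in CPM, the counts of a gene scaled to a common total per well, and on the host side otherwise. That gave 501 tumour wells and 717 host wells, with host wells making up 72.4% of the 4T1 day 4 group, 80% of the 4T1.2 day 4 group and none of either culture. The luciferase reporter, which the rule did not use, had a median of 33.0 to 96.8 CPM in the tumour wells of the groups and 0.616 to 1.53 CPM in the host wells. The mCherry reporter, on which the cells were sorted, did not separate the sides in this way: its median at day 4 in 4T1 was 1905 CPM in host wells and 405 CPM in tumour wells. In the other bone groups it was 184 to 295 CPM in host wells and 360.1 to 682 CPM in tumour wells, and in fat pad host wells 13.2 CPM. Median depth was 2647149 to 3054736 counts per well. Tumour wells from marrow also held some blood cell RNA: the summed blood genes had a median of 46.8 CPM at day 4, 25.3 at day 10, 43.0 at day 16 and 212 in 4T1.2 at day 4, against 0 in both cultures. The median sum of 7 neutrophil markers was 682 CPM in 4T1 day 4 tumour wells and 0.345 CPM in culture. The median sum of 7 epithelial markers was 160 CPM in 4T1 day 4 tumour wells against 1663 CPM in culture, with Cldn3 and Cldn4 at 0 in the median well. In 4T1.2 it was 230 CPM at day 4 and 556 CPM in culture, with 6 of the 7 at 0 in the median day 4 well. These 47 tumour wells had a median of 617 CPM for the neutrophil markers. In 22 of the 47 the keratin sum was at least 10 times the blood gene sum. Of all wells in that group, 14 lay within 2-fold of the rule. The part of blood cell RNA and of low epithelial markers in the results below was not tested.

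The sum of the 43 genes was lower in the median tumour well of every bone group than in the median culture well of the same line. Single genes, among them Irf1, did not all follow the sum, as given below. Summed over the 43 genes, the lowest, median and highest culture wells held 1704, 5157 and 32425 CPM. The 137 tumour wells of day 4 held 141, 792 and 41305 CPM, so the ranges overlapped at the top while 99 of the 137 wells (72.3%) lay below the lowest culture well. At day 10 the 54 tumour wells held 513, 2368 and 15664 CPM, and 19 of them (35.2%) lay below that culture well. At day 16 the 71 tumour wells held 271, 1779 and 8695 CPM, and 31 of them (43.7%) lay below the lowest culture well. The 85 fat pad wells held 992, 3717 and 16833 CPM, nearest to culture, and 9 of them lay below its lowest well. For 4T1.2 the 53 culture wells held 616, 5661 and 21376 CPM and the 47 day 4 tumour wells 144, 743 and 6279 CPM, with 18 of the 47 (38.3%) below the lowest well of their culture. In 4T1 the median well was thus lowest at day 4 and intermediate at days 10 and 16. For 4T1.2, bone was sampled at day 4 only, where the median well was lower than in culture.

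**Figure D1:**
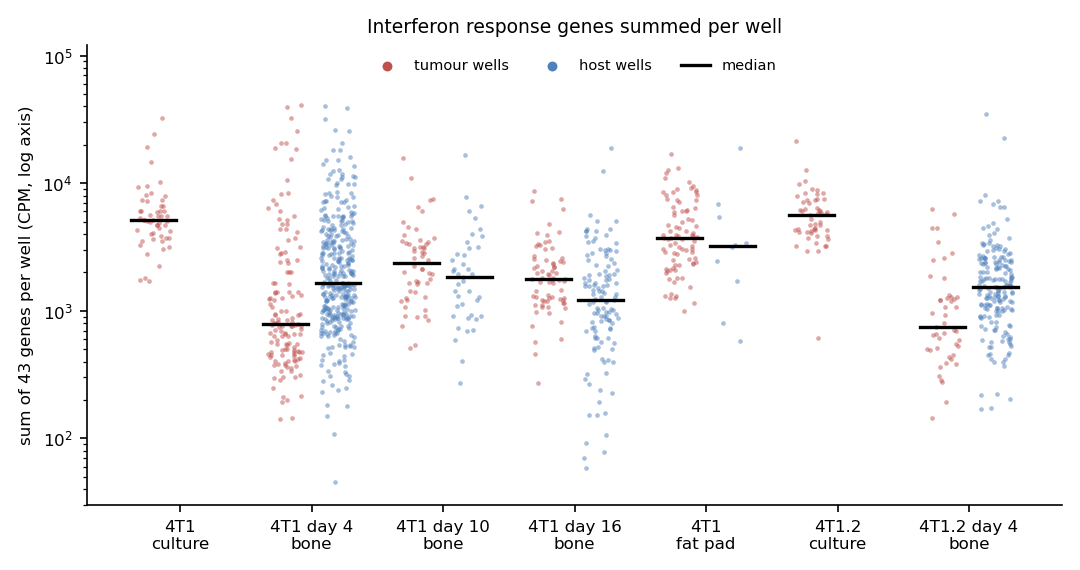
Sum of the 43 genes in each well (CPM, log axis) by group, tumour wells in red and host wells in blue, black bars at the median. Culture tumour wells have medians of 5157 CPM (4T1) and 5661 CPM (4T1.2), day 4 tumour wells medians of 792 and 743 CPM with a tail of wells up to 41305 CPM.

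The day 4 tumour wells of 4T1 were also the most uneven. The highest 14 of the 137 wells held 63.7% of the per-well sums, against 31.6% for the highest 6 of 54 culture wells. As a result the counts summed over all day 4 tumour wells gave 2996 CPM, far above the median well of 792 CPM. A summed level does not tell fewer expressing cells from a lower level in each cell. Values over wells are therefore given below for the 43 genes as a set and for some single genes. Other single genes are given in the text by summed level only, which cannot separate these readings. The plot of levels by role shows the median well of each of the 43 genes. After thinning every well to 500000 counts, the median culture well had 36 of the 43 genes at 10 CPM or more and the median day 4 tumour well 14. At least 22 of the 43 reached that level in 53 of 53 thinned culture wells (exact binomial 95% interval 93.3 to 100%), in 41 of 135 wells at day 4 (30.4%, 22.8 to 38.9%), in 26 of 52 at day 10 (50%, 35.8 to 64.2%), in 15 of 69 at day 16 (21.7%, 12.7 to 33.3%) and in 64 of 84 of the fat pad (76.2%, 65.7 to 84.8%). In 4T1.2 it was 52 of 53 culture wells and 13 of 46 day 4 wells (28.3%, 16.0 to 43.5%). These intervals cover counting of wells only.

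**Figure D2:**
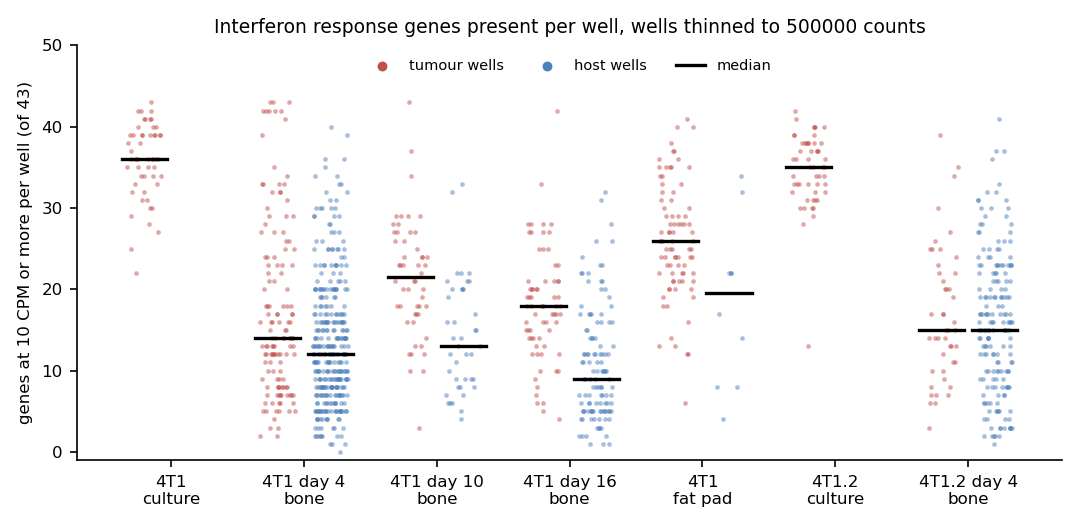
Number of the 43 genes at 10 CPM or more in each well after thinning to 500000 counts, by group, tumour wells in red and host wells in blue, black bars at the median. The median is 36 in 4T1 culture, 14 in day 4, 21.5 in day 10, 18 in day 16 and 26 in fat pad tumour wells.

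Summed over tumour wells, 27 of the 43 genes were at least 2-fold lower at day 4 than in culture in 4T1, and 2 (Irf1, Cxcl10) at least 2-fold higher, counted on CPM plus 5 among genes with 5 CPM or more in either group. The same rule called 3.60% of all 10234 genes lower and 5.18% higher, and the median log2 ratio was -1.36 for the 43 genes and -0.06 for all. Compared by the median well instead, 37 of 38 genes measured were lower and none higher, against 20.6% and 4.26% of all genes. In 4T1.2, 32 of 42 genes were lower and the same 2 higher by summed counts (all genes 3.15% and 6.17%), with a median log2 ratio of -1.84 against -0.03 for all genes. By the median well it was 38 of 39 lower and 1 higher (all genes 13.3% and 3.28%). By summed counts of only the 22 day 4 wells with keratins at least 10 times the blood genes, 34 of 42 were lower and 1 higher (all genes 3.89% and 4.25%). Of the 43 genes, 25 were lower in both lines, Trim25 and Oasl1 in 4T1 alone, and Irf9, Herc6, Ifit3, Ifit3b, Cmpk2, Dtx3l and Ifi35 in 4T1.2 alone, a difference between the lines that was not tested. The share of all genes lower in both lines was not counted.

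**Figure D3:**
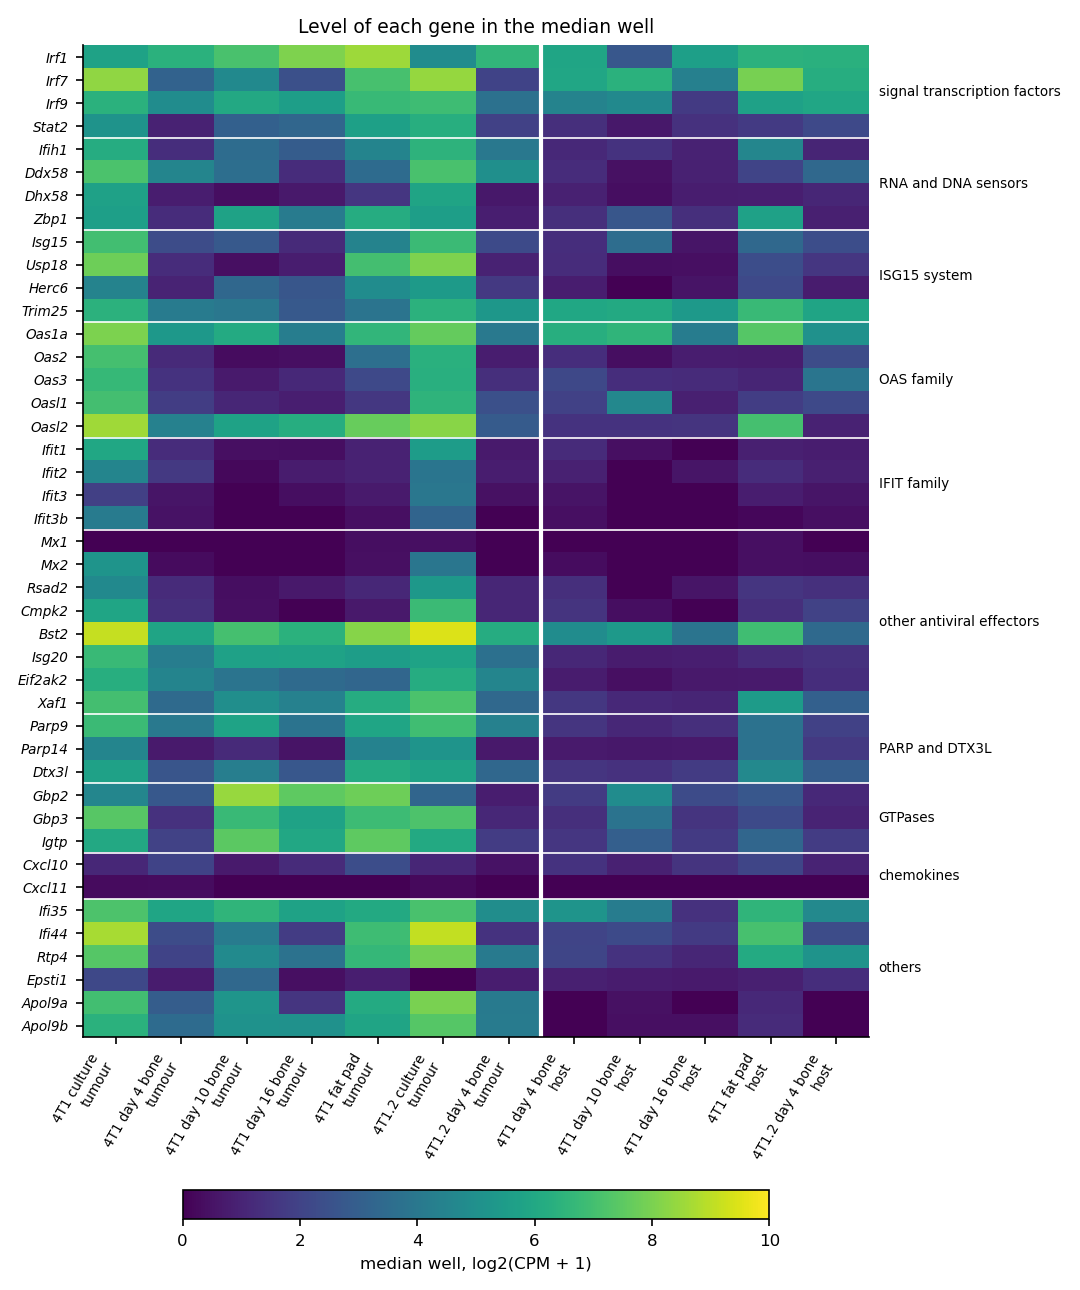
Level of each of the 43 genes in the median well, log2(CPM + 1), by role (rows) and by group and side (columns, tumour left of the white line, host right). Both cultures are bright for 38 and 37 of the 43 genes at 10 CPM or more, the day 4 tumour wells for 12 and 14.

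Of the 4 transcription factors, 2 were lower in 4T1 at day 4 and Irf1 was higher. Irf7, the factor that amplifies interferon production, had lowest, median and highest wells of 46.6, 319 and 1539.7 CPM in 4T1 culture, 0, 7.87 and 775 CPM in day 4 bone, 0, 25.5 and 289.6 CPM in day 10 bone, 0.312, 4.47 and 485 CPM in day 16 bone and 1.49, 135 and 867 CPM in fat pad tumours. Every culture well thus held Irf7 while the median day 4 well was below 10 CPM, and the fat pad median lay between. Its summed level was 365 CPM in culture (exact Poisson 95% interval 362 to 368) and 79.6 at day 4, a log2 ratio of -2.13. The 4T1.2 sums were 369 and 21.7 CPM, a log2 ratio of -3.81. Such intervals cover counting error of reads only, and reached at most 3.67% from the value for sums of 20 CPM or more in tumour wells.

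Irf1, a factor induced by both interferon types, went the other way. Its wells held 0.373, 53.3 and 1047 CPM in culture, 0.649, 83.6 and 3077 CPM in day 4 bone, 0.883, 137 and 3494 CPM in day 10 bone, 3.57, 268 and 6399.5 CPM in day 16 bone and 6.07, 367 and 4529 CPM in fat pad tumours. The groups overlapped, and the median was higher in each group in turn from culture to the fat pad. Summed, Irf1 was 90.3, 249, 322, 562 and 588 CPM in that order, a log2 ratio to culture of 1.41 at day 4. In 4T1.2 its median well was 27.9 CPM in culture and 95.7 CPM at day 4, and its summed level 47.8 and 229 CPM (log2 2.15). Irf9, the DNA-binding part of ISGF3, had summed levels of 101 CPM (culture), 59.3, 95.3 and 87.4 CPM (bone, days 4, 10 and 16) and 135 CPM (fat pad). Stat2, its partner, was 57.3, 24.3, 43.0, 50.9 and 99.2 CPM in the same order, with a median well of 33.7 CPM in culture and 0.944 CPM at day 4.

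**Figure D4:**
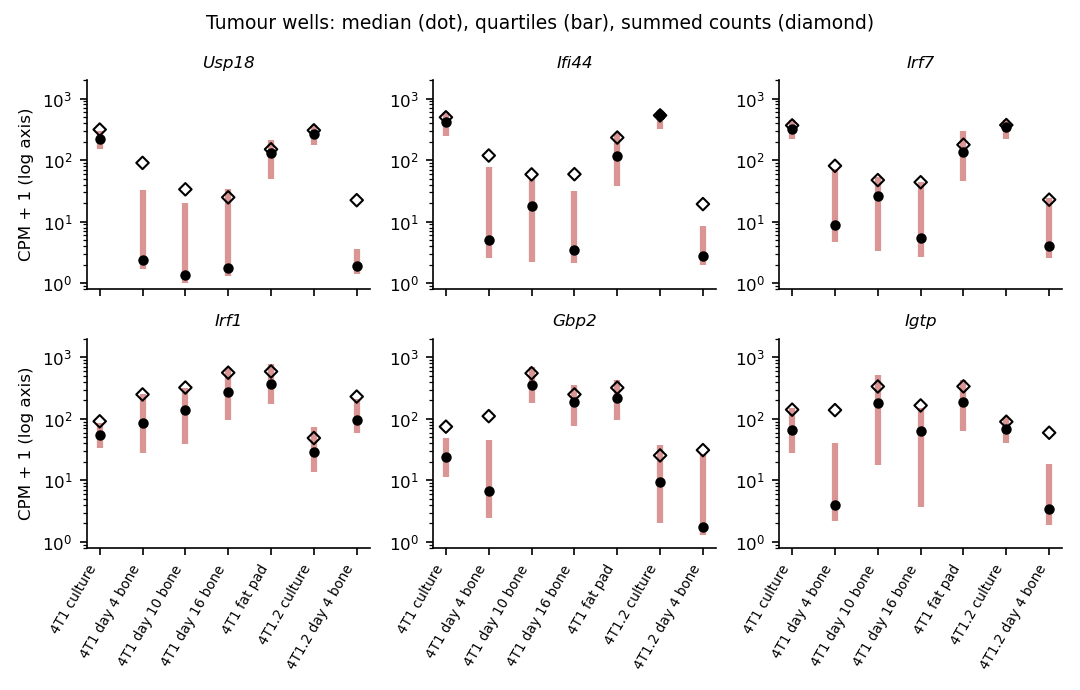
Usp18, Ifi44, Irf7, Irf1, Gbp2 and Igtp in tumour wells of each group: median well (dot), quartiles (bar) and level of summed counts (diamond), CPM + 1 on a log axis. The medians of Usp18 and Ifi44 are 221 and 411 CPM in 4T1 culture and 1.39 and 3.97 CPM at day 4, while Irf1 has 53.3 CPM in culture and 367 CPM in the fat pad.

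All 4 sensors were lower at day 4 in both lines. Ddx58 encodes RIG-I, the sensor of viral RNA ends, and its wells held 1.05, 142 and 1761 CPM in culture and 0, 22.3 and 555 CPM at day 4. Its summed level stayed low at later times, at 27.5, 17.3 and 37.2 CPM on days 10 and 16 and in the fat pad, against 188 in culture. Ifih1 (MDA5, a sensor of long double-stranded RNA) was 97.0 CPM in culture and 38.5 at day 4, and Dhx58 (LGP2, a regulator of both) 73.3 and 20.0 CPM. Zbp1, the Z-nucleic acid sensor, was 84.0 CPM in culture and 34.9 at day 4, but 72.2 at day 10 and 99.6 in the fat pad, with a median well of 53.6 CPM at day 10 against 1.42 CPM at day 4.

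Of the Isg15 system, a ubiquitin-like modifier with its ligases and protease, 3 of 4 genes were lower at day 4 in each line, Isg15 and Usp18 in both, Trim25 in 4T1 and Herc6 in 4T1.2. Usp18, the protease that also dampens receptor signalling, had wells of 12.5, 221 and 2303 CPM in 4T1 culture, 0, 1.39 and 2271 CPM in day 4 bone, 0, 0.336 and 462 CPM in day 10 bone, 0, 0.753 and 286 CPM in day 16 bone and 0.639, 127 and 837 CPM in fat pad tumours. No culture well was below 12.5 CPM, and 41 of 135 thinned day 4 wells reached 10 CPM (30.4%, interval 22.8 to 38.9%). In 4T1.2 the Usp18 wells held 51.7, 266 and 1348 CPM in culture and 0, 0.922 and 328 CPM at day 4. Isg15 itself was 184 CPM in culture and 39.5, 18.7, 15.6 and 38.7 CPM at day 4, day 10, day 16 and in the fat pad. Herc6, the mouse Isg15 ligase, was 34.0 CPM in culture and 17.0 at day 4, not past 2-fold, and shares 23.8% of its 50-base stretches with the gene model Gm45193. Trim25, a ligase that activates RIG-I, was 92.5 and 30.4 CPM.

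All 5 OAS genes, synthetases of the 2-5A messenger that activates RNase L and their relatives, were lower at day 4 in 4T1, and 4 of 5 in 4T1.2. Oasl2 had wells of 10.0, 380.3 and 1805 CPM in 4T1 culture, 0, 19.8 and 2041 CPM in day 4 bone, 0, 53.2 and 671 CPM in day 10 bone, 0.281, 73.7 and 651 CPM in day 16 bone and 1.90, 206 and 1477 CPM in fat pad tumours. The medians at days 10 and 16 lay above that of day 4 and below culture. Oas3 was 129.7 CPM in culture and 18.0 at day 4 (log2 -2.55), and Oas2 129 and 36.4 CPM. Oas1a was 296 and 129 CPM, but 57.6% of its 50-base stretches occur in Oas1g, so reads of the pair may have been split or dropped. Oasl1 was the member not 2-fold lower in 4T1.2, with 189 CPM in culture and 129 at day 4 (log2 -0.53). Its median well was 89.5 CPM in culture and 4.47 CPM at day 4, and 1 well held 25.7% of its day 4 counts.

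The IFIT genes bind foreign RNA and block its translation, and 1 of 4 was lower at day 4 in 4T1 and 3 of 4 in 4T1.2. Ifit1 wells held 0.877, 61.6 and 1599.5 CPM in culture, 0, 1.42 and 2031 CPM in day 4 bone, 0, 0.333 and 1908 CPM in day 10 bone, 0, 0.289 and 73.8 CPM in day 16 bone and 0, 0.920 and 607 CPM in fat pad tumours. The day 10 sum of 56.9 CPM came to 90.1% from a single well. Ifit3 was 93.4 CPM in culture and 70.1 at day 4, with median wells of 2.67 and 0.464 CPM. One well held 94.1% of its day 10 counts and 69.8% of its day 16 counts. Ifit3b was 77.2 and 39.8 CPM. Ifit3 and Ifit3b share 51.2% and 45.0% of their 50-base stretches, and their separate values are uncertain. Ifit2 had a higher sum at day 4 in 4T1, with 32.0 CPM in culture and 43.2 at day 4, where 1 well held 31.9%. Its median well was 22.7 CPM in culture and 2.13 CPM at day 4.

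Of 8 other antiviral effectors, 5 were lower at day 4 in 4T1 and 6 in 4T1.2. Bst2 (tetherin, which holds budding virus at the cell surface) had wells of 233, 552 and 2100.1 CPM in 4T1 culture, 1.06, 57.0 and 1450.3 CPM in day 4 bone, 0.896, 132 and 307 CPM in day 10 bone, 0.724, 81.7 and 989.5 CPM in day 16 bone and 62.5, 291 and 828 CPM in fat pad tumours. It was the gene found in most day 4 tumour wells, with 10 CPM or more in 126 of 135 thinned wells. In 4T1.2 its median well was 709 CPM in culture and 71.5 CPM at day 4. The lowest culture well, at 182 CPM, lay below the highest day 4 well, at 289 CPM.

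Xaf1, a promoter of apoptosis, was 156 CPM in culture and 42.8 at day 4, Isg20 (an RNA exonuclease) 125 and 36.3 CPM, and Eif2ak2 (PKR, the kinase that halts translation) 96.9 and 34.7 CPM. Cmpk2, Rsad2 and Mx1 were not lower in 4T1 by summed counts. Cmpk2, a mitochondrial nucleotide kinase, was 101 CPM in culture and 136 at day 4, but its median well was 58.3 against 1.54 CPM and 1 well reached 5316 CPM. Rsad2 (viperin) was 115 and 94.4 CPM with median wells of 25.7 and 1.36 CPM. Mx1, a GTPase that blocks viral nucleocapsids, was at 0 in 28 of 54 culture wells and 70 of 137 day 4 wells. Mx2 was 74.7 CPM in culture, 37.2% of it in 1 well, and 17.8 at day 4.

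The PARP9-DTX3L ubiquitin ligase pair and Parp14, ADP-ribosyltransferases that raise interferon signalling, were 1.81- to 2.59-fold lower at day 4 in 4T1 on CPM plus 5, and Dtx3l did not reach 2-fold. Parp9 was 139 CPM in culture and 50.6, 68.8, 43.1 and 86.4 CPM at day 4, day 10, day 16 and in the fat pad. Dtx3l was 71.2, 37.1, 47.0, 43.7 and 86.6 CPM in the same order. The genes of the pair overlap on opposite strands of chromosome 16 and the library kit does not mark strand, so reads in the overlap cannot be assigned. Parp14 was 35.4 CPM in culture and 15.0 at day 4.

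The 3 GTPases, which attack the membranes of vacuoles holding pathogens, differed among themselves. Gbp2 wells held 0, 23.0 and 739 CPM in culture, 0, 5.70 and 2227 CPM in day 4 bone, 4.63, 349 and 2927 CPM in day 10 bone, 1.17, 185 and 2034 CPM in day 16 bone and 2.85, 220.1 and 1619 CPM in fat pad tumours. Its median was thus lower at day 4 than in culture and above culture in the 3 later groups, and 51 of 52 thinned day 10 wells had 10 CPM or more. Igtp, an immunity-related GTPase, had wells of 0.584, 64.0 and 1171 CPM in culture, 0, 2.97 and 3186 CPM in day 4 bone, 1.10, 179 and 1682 CPM in day 10 bone, 0, 63.4 and 1246 CPM in day 16 bone and 2.08, 184 and 2046 CPM in fat pad tumours. Its median was lower at day 4 than in culture, above culture at day 10 and in the fat pad, and close to culture at day 16. Igtp shares 12.3% of its 50-base stretches with Irgm2. Gbp3 was 323 CPM in culture and 110.5 at day 4, with median wells of 166, 1.66, 108, 52.5 and 113 CPM over the 5 groups in order.

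The chemokines Cxcl10 and Cxcl11 draw Cxcr3-bearing T and NK cells. Cxcl10 was the other gene higher at day 4 in both lines by summed counts, at 89.9 CPM in 4T1 culture against 262 at day 4. The 4T1.2 sums were 21.9 CPM in culture and 80.7 in bone. Its wells held 0, 1.14 and 1552 CPM in 4T1 culture and 0, 3.08 and 7058 CPM at day 4, so the medians were close and the highest wells far apart. In 4T1.2 the median well was 1.11 CPM in culture and 0.389 CPM at day 4, opposite in direction to the summed ratio of 1.67 (log2). Later sums were 104 and 19.3 CPM in bone on days 10 and 16 and 183 CPM in fat pad tumours. Cxcl11 was 29.6 CPM in culture, 80.3% of it in 1 well, and 42.2 at day 4.

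Among the remaining 6 genes, Ifi44, Rtp4, Apol9a and Apol9b were lower at day 4 in both lines. Ifi44, induced by interferon and able to restrain its signalling, had wells of 7.22, 411 and 2038 CPM in 4T1 culture, 0, 3.97 and 1566 CPM in day 4 bone, 0, 16.8 and 555 CPM in day 10 bone, 0, 2.41 and 269 CPM in day 16 bone and 1.68, 117 and 1678 CPM in fat pad tumours. In 4T1.2 it had 7.75, 535 and 1917 CPM in culture and 0.297, 1.79 and 219 CPM at day 4, a log2 ratio of -4.53, the most negative of the 43 genes in that comparison. Rtp4, a chaperone of receptor transport, was 181 CPM in 4T1 culture and 56.7 at day 4. Apol9a was 189 and 47.3 CPM and Apol9b 143 and 35.8 CPM. These apolipoprotein L copies are near-identical, with 51.4% of the 50-base stretches of Apol9b found in Apol9a. Ifi35 was 172 and 91.4 CPM, and Epsti1, low in culture at 9.86 CPM, was 7.63 at day 4 and 21.1 at day 10.

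Day 10 tumour wells had a higher median sum than day 4 wells, and their highest wells were lower. The share of wells above the culture median was close, at 11.1% of 54 wells at day 10 and 13.1% of 137 at day 4. By summed counts 11 of 43 genes were at least 2-fold lower at day 10 and 3 higher (Gbp2, Igtp, Epsti1), against 2.73% and 4.64% of all genes, with a median log2 ratio of -0.12 for both the 43 genes and all genes. By the median well none of 27 genes measured was lower and 20 were higher, against 11.0% and 6.52% of all genes. The 11 lower by sum were Usp18, Oas2, Oasl1, Ifit2, Ifit3, Ifit3b, Mx1, Rsad2, Cmpk2, Cxcl10 and Cxcl11. Of these, Ifit3, Ifit3b, Mx1, Rsad2 and Cxcl10 had over 50% of their day 10 counts in a single well. With DESeq2 size factors the counts were 10 lower and 5 higher, so this split moved with the scaling.

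At day 16 against day 4, 15 of 43 genes were lower and 2 higher (Irf1, Gbp2) by summed counts, against 9.28% and 10.2% of all genes, and the median log2 ratio was -0.24 against -0.02 for all genes. Over median wells, 1 of 24 genes was lower and 10 higher (all genes 31.3% and 8.47%). At day 16 against day 10, 12 of 42 were lower and none higher (all genes 5.52% and 7.14%), and leaving out the well with the highest sum in each group left 4 lower and 1 higher. Median wells gave 10 of 27 lower and none higher (all genes 22.0% and 5.41%). The GTPases were among the lower genes, Gbp2 from 551 to 249 CPM, Igtp from 335 to 164 CPM and Gbp3 from 211 to 93.0 CPM, while Irf1 went from 322 to 562 CPM. These 3 time comparisons share groups and are not independent.

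The fat pad had the highest median sum of the tumour groups taken from mice. Against culture, 20 of 43 genes were lower and 3 higher (Irf1, Gbp2, Igtp), with 13.3% and 10.7% of all genes called, and a median log2 ratio of -0.97 against -0.14. With TMM scaling, and with DESeq2 size factors, the counts were 15 lower and 4 higher. Over median wells, 20 of 38 genes were lower and 3 higher against 46.7% and 6.83% of all genes, so that the share lower was near the background. Day 16 bone cells were lower than fat pad cells for 16 of 43 genes and higher for none (all genes 4.23% and 7.48%, median log2 -0.92 against 0.04), and by the median well for 22 of 29 and none (all genes 10.9% and 13.0%). Among the 16, Usp18 was 23.8 against 149 CPM, Irf7 42.6 against 176, Ifi44 57.9 against 231 and Bst2 116 against 345 CPM. Irf1, at 562 and 588 CPM, was nearly level. Of the 5 groups of 4T1 tumour wells, culture had the highest summed level for 29 genes, the fat pad for 7 (Irf1, Irf9, Stat2, Zbp1, Herc6, Dtx3l, Igtp), day 4 for 5 (Ifit2, Mx1, Cmpk2, Cxcl10, Cxcl11), day 10 for 2 (Gbp2, Epsti1) and day 16 for none. The shares of all genes highest in each group were not counted, so these counts have no background beside them.

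In 4T1.2 culture 6 of 43 genes were lower than in 4T1 culture and none higher (all genes 4.98% and 3.62%, median log2 -0.35 against -0.01), and by the median well 2 were lower and 2 higher of 39 (all genes 5.44% and 5.73%). The 6 were Mx1, Mx2, Gbp2, Cxcl10, Cxcl11 and Epsti1. At day 4 in bone, 20 of 43 were lower in 4T1.2 than in 4T1 tumour wells and none higher by summed counts (all genes 5.07% and 4.19%, median log2 -0.97 against 0.03). The median wells did not show this: 2 of 19 measured were lower and 2 higher (all genes 6.68% and 11.3%), and the median sums were 743 and 792 CPM. The tail of high wells differed: 18 of the 137 4T1 wells lay above the median of their culture, and 2 of the 47 4T1.2 wells above that of theirs.

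Host wells, those with more RNA of the blood genes than of the keratins, carried the same genes. Their median sum was 1650 CPM in 4T1 day 4 (range 45.2 to 40148), 1827 CPM in day 10 and 1207 CPM in day 16 bone, 3207 CPM for the 10 host wells of fat pads and 1539 CPM in 4T1.2 day 4. At day 4 in 4T1, 6 of 43 genes were lower and 8 higher in tumour than host wells by summed counts, against 19.6% and 17.0% of all genes, and with DESeq2 size factors 9 and 6. At day 10 it was 8 lower and 17 higher (all genes 18.5% and 24.6%), with TMM scaling 10 and 13 and with DESeq2 size factors 12 and 10. At day 16 it was 10 of 42 lower and 9 higher (17.9% and 23.9%), with TMM scaling or DESeq2 size factors 13 and 7. In 4T1.2 at day 4 it was 19 of 42 lower and 4 higher (20.5% and 16.1%), and 13 lower without the highest well of each side. The respective median log2 ratios were -0.22, 0.57, 0.15 and -0.81, against 0.02, 0.26, 0.22 and -0.04 for all genes. Without the highest well of each side the day 10 median was 0.04, with 10 lower and 9 higher. The day 16 median changed sign, to -0.11 with TMM scaling, -0.20 with DESeq2 size factors and -0.24 both with wells weighted equally and with wells at least 10 times apart in the side rule. By the median well the balance turned towards the tumour side, as it did for all genes. In 4T1 it was 2 lower and 8 higher of 17 at day 4 (all genes 4.75% and 71.5%), 3 and 23 of 28 at day 10 (8.36% and 65.2%) and 2 and 16 of 22 at day 16 (9.26% and 63.8%). In 4T1.2 it was 3 lower and 8 higher of 19 (9.17% and 56.7%).

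**Figure D5:**
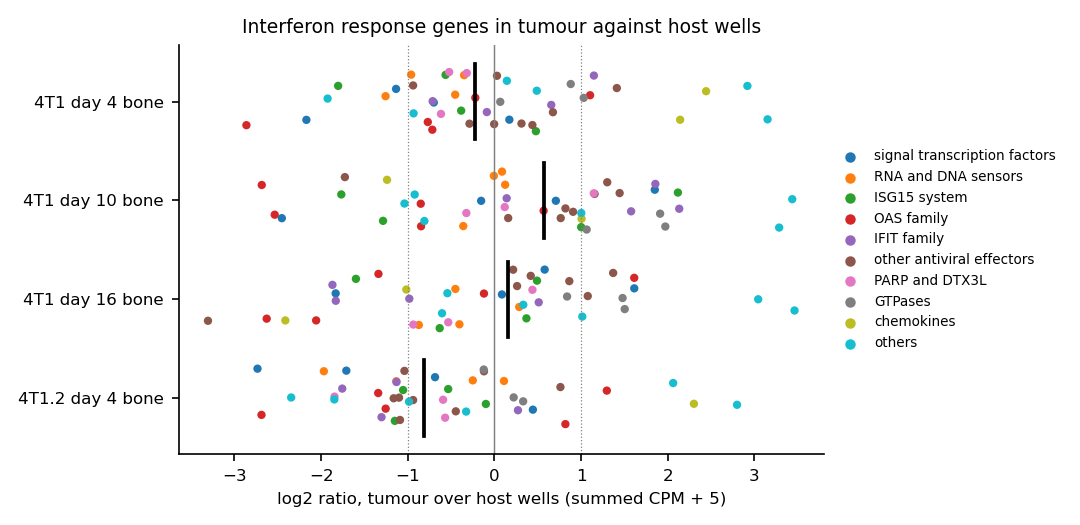
Log2 ratio of tumour over host wells (summed CPM + 5) for each measured gene in the 4 bone groups, coloured by role, black bars at the median, dotted lines at 2-fold. Apol9a and Apol9b lie between 2.06 and 3.46 in all 4 groups, Irf7, Oas3 and Trim25 between -2.86 and -1.05.

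Irf7, Trim25 and Oas3 were lower in tumour wells in all 4 bone groups, and Apol9a and Apol9b higher in all 4. The share of all genes called in all 4 groups was not counted. Single comparisons called 17.9 to 20.5% of all genes lower and 16.1 to 24.6% higher, so these genes are named as a description only. Irf7 host wells had a summed level of 376 CPM in 4T1 day 4 with a median of 60.1, against 79.6 and 7.87 CPM in tumour wells. Trim25 had host medians of 61.2, 66.0, 40.7 and 56.3 CPM in 4T1 day 4, day 10, day 16 and 4T1.2 day 4, and tumour medians of 16.8, 14.7, 6.02 and 38.5 CPM. Apol9a was 0.883 CPM in the 359 day 4 host wells and 47.3 CPM in the 137 tumour wells, and Apol9b 0.394 and 35.8 CPM. Irf1 had host medians of 57.6, 5.59, 49.5 and 81.3 CPM in the same order, against tumour medians of 83.6, 137, 268 and 95.7 CPM.

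Host wells were grouped by the marker list with the highest score. The 374 neutrophil-marker wells had a median sum of 1718 CPM, 155 B lineage wells 1137, 95 macrophage and monocyte wells 1946, 43 myeloid precursor wells 976, 26 erythroid wells 2428 and 13 plasmacytoid dendritic wells 3550 CPM. The next list scored within 1 log2 unit in 43, 14, 20, 14, 8 and 2 of these wells, in that order. These medians pool groups. Macrophage and monocyte wells had a median of 4133 CPM in 4T1 day 4 (12 wells) and 1601 CPM in day 16 (54 wells). Erythroid wells came from day 4 bone only. A high sum did not mean that all 43 genes were high. In the plasmacytoid dendritic wells, a cell type known for interferon production, the summed counts gave 864 CPM for Bst2, 624 for Irf7, 592 for Trim25 and 460.4 for Irf1, but 5.83 CPM for Isg15, 1.56 for Ifit1 and 1.84 for Rsad2. The neutrophil-marker wells had, by summed counts, 60.5 CPM of Bst2 and 343 of Irf7, but 54.6 CPM of Isg15, 105 of Ifit1 and 83.8 of Rsad2. By the median well, Isg15, Ifit1 and Rsad2 were low in both classes. They were 2.46, 0.910 and 1.54 CPM in neutrophil-marker wells and 0.928, 0.684 and 1.43 CPM in plasmacytoid dendritic wells. The highest neutrophil-marker well for Ifit1 held 8722 CPM. In 4T1 day 4 the neutrophil wells had a median of 2101 CPM, against 1023 CPM at day 16 and 1525 CPM at day 10. The 115 neutrophil wells of 4T1.2 day 4 had a median of 1566 CPM.

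Within tumour wells the genes varied together to different degrees. The median Spearman correlation of a gene with the sum of the other 42, over wells, was 0.62 for 4T1 culture, then 0.54, 0.37 and 0.26 for bone on days 4, 10 and 16, 0.39 for the fat pad, 0.57 for cultured 4T1.2 and 0.42 for 4T1.2 from bone. The number of genes above 0.5 was 30, 22, 9, 0, 14, 28 and 11 in the same order. The share of all genes above 0.5 was not counted, so these counts have no background beside them. Genes with a median well below 10 CPM numbered 5, 31, 20, 28, 15, 6 and 29 in the same order. The part of such low levels in the correlations was not tested. The correlations are descriptions over cells that share a group. The Spearman correlation of the summed level with blood cell RNA in the same wells was -0.07 to 0.23 over the groups, and with depth -0.22 to 0.19.

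Of 8 interferon genes none reached 5 CPM in tumour wells. Ifng, made by T and NK cells, was 5.88 CPM in day 10 host wells and 4.05 in day 16 host wells, and Ifnb1 3.41 CPM in fat pad host wells. None of the 6 receptor chains and kinases was lower at day 4 than in culture in either line, and 1 was higher in 4T1.2. Of all genes, 3.60% were lower and 5.18% higher in 4T1, and 3.15% and 6.17% in 4T1.2. With 6 genes, none lower is near that share and is no result about the receptors. Ifnar1 was 48.1 CPM in 4T1 culture, 59.9 at day 4, 83.7 at day 10 and 68.6 at day 16, and Ifnar2 29.5, 38.7, 66.0 and 89.4 CPM.

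Of 3 brakes, 2 were higher and 1 lower at day 4 than in culture in both lines. Socs1, an inhibitor of Jak kinases induced by interferon γ among others, was 32.4 CPM (4T1 culture), 136, 415 and 127 CPM (bone, days 4, 10 and 16) and 78.8 CPM (fat pad). Socs3, which answers chiefly to the interleukin 6 family, was 31.2, 271, 462, 666 and 273 CPM. Adar, the RNA editor that hides self RNA from MDA5, was 112 CPM in culture and 37.2 at day 4. Of 28 further induced genes, 4 of 26 measured were lower and 2 higher at day 4 in 4T1 (all genes 3.60% and 5.18%), and 15 of 25 lower and 1 higher in 4T1.2 (3.15% and 6.17%). At day 10 against day 4 none of 27 was lower and 8 were higher (2.73% and 4.64%), namely Ifitm1, Ifi47, Irgm1, Iigp1, Tgtp1, Tgtp2, Gbp4 and Gbp7. Gbp4 was 90.6 and 395 CPM in that comparison, Iigp1 64.9 and 246 CPM and Tgtp2 53.6 and 133 CPM.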

How the data were processed

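Single mCherry-sorted cells were profiled by Smart-seq2 (paired 150-base reads), per the labels' protocols. The authors deposited 1 table of raw read counts per gene and well, without molecular identifiers. The submitters' processing notes name the build mm10, the aligner STAR 2.6.0c and the counter featureCounts 1.6.2, beside Trim Galore 0.6.6, SAMtools 1.7 and Seurat 3.1.2, with no settings. Multi-mapped reads, as in near-identical copies, may therefore be lost or split. Spike-in rows (0.670% of counts), the reporters (0.187%) and rows with repeated symbols (0.0149%) were left out of totals.

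Counts were summed over the wells of a group and side, scaled to CPM, and compared as the log2 ratio of CPM plus 5, with 2-fold as the call, among genes with 5 CPM or more in either group. No test between groups was made, since the labels name no animal, culture or plate and cells are not replicates. Doublets were not called. The side rule sets wells with RNA of both cell kinds by the larger sum, and 22 wells lay within 2-fold of it. All 43 genes could be named. Well-by-well values were given for the most abundant culture genes of each role and those that went against their role, and some further genes were chosen after their values were seen. The members and lists were chosen with earlier results of these data known. Marker lists were epithelial, B lineage, neutrophil, macrophage and monocyte, myeloid precursor, erythroid, plasmacytoid dendritic, T and NK, basophil and mast, and stroma and endothelium. The last led no host well. T and NK markers led 7 host wells and basophil and mast markers 4. Ifnl3 and Trex1 were not analysed here. The 8 other settings tried were TMM scaling (edgeR 4.0.16), DESeq2 1.42.0 size factors, a pseudocount of 1, no filter on low values, wells weighted equally, no cell filter, wells at least 10 times apart in the side rule, and leaving out the well with the highest sum. The median well was added after seeing the data. Python 3.11.15, numpy 2.4.6, pandas 2.3.3, scipy 1.17.1 and R 4.3.3 were used, and the ratios were tested on simulated data.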

Additional observations from a re-analysis of the deposited data

Results flagged for a closer look

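The highest of the 10 host wells of the fat pad held a sum of 18824.1 CPM over the 43 genes, against 6829 CPM for the next. Its gap to the others was 0.657 of the group's range, above the critical value of 0.466 for 10 wells. Dixon's test marks about 1 in 20 groups by chance only where values are normally distributed. The sums per well were skewed towards high values, so that rate does not hold here and the mark is a description only. It compares cells and not animals, and 1 group was of a size that could be tested. In this well Rsad2 was at 6449 CPM, Oasl1 at 2396, Cmpk2 at 1389, Ifi44 at 893 and Ifit1 at 861 CPM. The well held 45.2% of the member counts of the fat pad host wells.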

How the results depend on the processing

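No paired analysis was possible because the numbers that groups share in the labels are cell numbers and no test between groups was made. Of 234 counts of genes under alternatives, 207 were within 1.5 times the reported count. Counts of higher genes became 1 in 4T1.2 day 4 against culture with wells weighted equally and with wells 10 times apart, 5 in day 10 against day 4 with DESeq2 size factors, and 1 in day 16 against day 4 with equal weights. In day 16 against day 10, 7 were lower with equal weights and 4 without the highest well, and 1 was higher with wells 10 times apart and without the highest well. Tumour over host wells, higher genes became 5 at day 4 with wells 10 times apart, and 10 (DESeq2) and 9 (without the highest well) at day 10. By the median well, higher genes were 0 and 1 at day 4 against culture in 4T1 and 4T1.2. Day 10 against day 4 had 0 lower and 20 higher, day 16 against day 4 had 1 and 10, and the 2 comparisons of the lines had 2 lower and 2 higher each. Tumour against host by the median well gave 2, 3, 2 and 3 lower at day 4, day 10, day 16 and in 4T1.2, and 16 and 8 higher in the last pair. Among log2 ratios of single genes that reached 2-fold, 23 values changed sign under an alternative, while ratios under 2-fold and medians are not in that number. Without the highest well these were Ifit1 0.97, Ifit3 1.04 and Ifit3b 0.52 (day 16 over day 10), Cxcl11 0.42 (fat pad over culture) and 0.027 (4T1.2 over 4T1 culture), Ifit1 -1.29 and Ifit3 -0.39 (tumour over host, day 10) and Ifit1 0.64 (day 16). With equal weights it was Cxcl10 -0.38 (tumour over host, day 10). By the median well they were Cxcl10 -0.18 (4T1.2 day 4 over culture), Ifit3 0.079, Rsad2 0.0793 and Cxcl10 0.17 (day 16 over day 10), Mx1 0.090 (4T1.2 over 4T1 culture), and, tumour over host, Ifit1 -0.0022, Cxcl10 -0.058 and Epsti1 1.34 (day 10), Ifit1 0.081, Ifit2 0.052 and Rsad2 0.025 (day 16), and Isg20 1.34, Xaf1 0.24 and Cxcl10 -0.16 (4T1.2). The cause was not tested. TMM moved the median of all genes from -0.06 to 0.05 in 4T1 day 4 against culture.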
